A study of Mus musculus with 20 samples.

Results

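The loading by dexamethasone (DEX) interaction was examined in tibial RNA-seq libraries as the loading response under DEX minus the loading response under vehicle. All 20 libraries of the series entered it, 5 in each of 4 groups. The animals were 3-month-old male C57BL/6J mice. Vehicle-treated mice received injection water s.c. and DEX-treated mice received DEX, a synthetic glucocorticoid, s.c. at 1 mg/kg, both as 5 injections. Axial loading of -13 N was applied to the left tibia in sessions of 40 cycles, each cycle with a hold of 0.1 s and a rest of 10 s. The unloaded control was the right tibia of the loaded mice, so both tibiae of a treatment came from the same animals. The labels place the sessions on days 1 and 3, whereas the study's figure legend for these tibiae gives loading 3 times weekly. That legend has the tibiae frozen 4 hours after the final loading, on day 5. The general loading methods give 2 to 3 sessions per week. No label or method ties a replicate number to a mouse, so the libraries were not matched by animal. RNA came from pulverized frozen tibia and held transcripts of bone, marrow, cartilage and muscle genes, and fewer cells of a type cannot be told apart from less RNA per cell in such bulk samples.

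Axial loading of the tibia strains the cortical bone, and osteocytes and periosteal cells are known to answer with bone formation through Wnt, prostaglandin and calcium channel signals. Chondrocytes build a matrix of aggrecan and collagens II, IX and X under the transcription factor Sox9, and osteoclasts, which form from macrophage precursors under RANKL and CSF1, resorb mineralized matrix. Glucocorticoids bind a nuclear receptor, induce genes such as Fkbp5, reduce bone formation and cause atrophy of fast-twitch muscle.

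Library totals ran from 4641437 to 13032018 counts. Loaded DEX replicate 4 had the lowest total and the most genes with a count (39972). Its olfactory receptor level, a measure of background reads because bone does not use these genes, was 8650 CPM (counts scaled to the library total), against 228 to 3494 CPM in the other 19 libraries. In each vehicle group, the library whose number had no matching label is called unnumbered. Fkbp5, a co-chaperone induced by glucocorticoids, lay between 47.3 and 115 CPM in the 10 vehicle libraries and between 89.1 and 176 CPM in the 10 DEX libraries, so the treatments overlapped. Defining genes of osteoblasts (Col1a1), osteocytes (Dmp1) and osteoclasts (Acp5) were read in every group, with lowest group means of 6823, 338 and 199 CPM. The labels give each library as a separate sample. The p-values measure the spread between these samples.

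Among 22659 genes tested, none had an interaction that passed an adjusted p-value of 0.05 in edgeR's quasi-likelihood test (0%), the lowest adjusted p being 0.0854. At an unadjusted p under 0.05 there were 3528 genes (15.6%), of which 2376 (10.5% of genes tested) had a higher and 1152 (5.08%) a lower loading response under DEX. The DESeq2 Wald test called 158 genes (0.697%), 147 higher and 11 lower. Over all genes tested, 53.9% had a difference above 0 and the median difference was 0.06 on the log2 scale. Among the genes with a higher response, 2355 of 2376 were below 0 in vehicle and above 0 in DEX. Among those with a lower response, 1107 of 1152 were above 0 in vehicle and below 0 in DEX. Choosing genes by a large difference favours such opposite signs, so these shares describe the genes and test nothing.

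The result depended on single libraries. Without unloaded DEX replicate 4, the count stayed at 0, with 2859 genes at an unadjusted p under 0.05 and a lowest adjusted p of 0.211. Without loaded DEX replicate 4, the count was also 0, with 2208 such genes and a lowest adjusted p of 0.191. When unloaded DEX replicate 5 was omitted, 291 genes passed, 287 of them higher and 4 lower under DEX. The count was 61 without the unnumbered unloaded vehicle library, 9 without loaded vehicle replicate 5 and 1 without unloaded DEX replicate 2. The main fit did not match the 2 tibiae of an animal. With the replicate number, which nothing ties to a mouse, as a block over 18 libraries, 232 genes passed. Without the block, 8 passed in the same libraries. In counts simulated for this design, the test found 139 of 200 interactions of a log2 size of 2 and 17 of 200 of a log2 size of 1. The changed genes had a mean of at least 1 CPM. Counts were drawn independently, without shifts shared by many genes of a library, so these shares may not hold for the real libraries.

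The 2 responses that the interaction compares were also read from the same model. In vehicle, 8 genes rose with loading at an adjusted p under 0.05 (0.0353%), namely Megf6, Sfrp1, Ptx3, Acan, Slc9b2, Slc37a2, Sox9 and Col9a3. With each library omitted in turn, 0 to 39 genes passed in either direction, and 0 passed without unloaded vehicle replicate 2 or 5. Without unloaded vehicle replicate 4, 36 of the 39 were higher and 3 lower. Without the unnumbered unloaded vehicle library, 4 were higher and 7 lower. The DESeq2 Wald test called 57 genes higher and 57 lower with loading in vehicle, and limma-voom 219 higher and 332 lower. With all 20 libraries, edgeR called none lower. In DEX, none passed in edgeR (0%), the lowest adjusted p being 0.537. The DESeq2 Wald test also called 0 genes in DEX, whereas limma-voom called 219 higher and 8 lower with loading. At an unadjusted p under 0.05, 3.24% of genes were higher and 5.54% lower with loading in vehicle, and 6.06% were higher and 2.15% lower in DEX. Complete separation of the loaded from the unloaded libraries was seen for 1.22% of genes in vehicle and 0.98% in DEX. Of the 8 genes that rose in vehicle, 6 had a DEX response between -0.14 and 0.14 on the log2 scale. The exceptions were Megf6, with 0.97 in DEX against 1.92 in vehicle, and Col9a3. Megf6, Slc9b2 and Slc37a2 are named after their values were seen, and because the vehicle response is part of the interaction, the smaller DEX response of such genes supports nothing by itself.

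Cartilage genes formed the group with the most negative difference. Of 22 genes listed, 18 passed the filter on low counts and could be tested. At an unadjusted p under 0.05, 10 of the 18 had a lower response under DEX (background 5.08%) and none a higher response, and none passed the adjusted threshold. The DESeq2 Wald test called 4 of the 18 lower, out of 11 lower calls over all genes. The median difference was -1.51, against 0.06 over all genes, and -0.69 when only genes with at least 10 counts in every library were kept. It came from a median response of 1.09 in vehicle and -0.35 in DEX. Of the 18 differences, 14 were below 0 and 4 above 0. In vehicle, 9 of the 18 were higher with loading at an unadjusted p under 0.05 (background 3.24%) and 1 was lower (background 5.54%). In DEX none was higher (background 6.06%) and 1 was lower (background 2.15%). Of the 10, those not described next were Cnmd, a chondrocyte membrane glycoprotein (-4.53 ± 1.25), Col10a1, the collagen of hypertrophic chondrocytes (-2.66 ± 0.79), Col2a1, the main cartilage collagen (-2.03 ± 0.77), and Hapln1, a link protein of aggrecan (-1.48 ± 0.61). The study had already named Acan, Sox9, Col9a2 and Matn3 from these samples, so their direction is not independent evidence.

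Acan encodes aggrecan, the large proteoglycan of cartilage, on chromosome 7 of GRCm38 (bases 79053483 to 79115099, plus strand). Unloaded vehicle libraries had 54.4, 60.8, 126, 62.4 and 92.3 CPM, and loaded vehicle libraries had 604, 166, 230, 297 and 369 CPM. Under DEX, unloaded libraries had 52.6, 46.4, 39.0, 30.5 and 22.1 CPM and loaded libraries had 37.4, 55.3, 36.0, 21.9 and 22.1 CPM. All loaded vehicle values lay above all unloaded vehicle values, whereas the DEX groups overlapped and lay below the loaded vehicle group. Acan rose with loading in vehicle by 2.07 ± 0.33 (SE) on the log2 scale, the DEX response was -0.14, and the interaction was -2.21 ± 0.46 (edgeR, adjusted p = 0.107, 0.00236 to 0.378 over the alternatives).

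Sox9 encodes the transcription factor that drives chondrocyte genes. It was read at 7.29, 10.1, 15.8, 6.95 and 12.0 CPM in unloaded vehicle libraries and at 46.2, 17.3, 16.6, 21.6 and 41.3 CPM in loaded ones. The 10 DEX libraries stayed between 8.45 and 12.1 CPM with or without load. Loaded and unloaded vehicle values did not overlap, and the lowest loaded values (16.6 and 17.3 CPM) lay close to the highest unloaded value. Sox9 rose by 1.45 in vehicle, and the interaction was -1.54 ± 0.38 (edgeR, adjusted p = 0.153, 0.0194 to 0.423 over the alternatives).

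Col9a3, a chain of the fibril-associated collagen IX, had 0.928 to 1.98 CPM in unloaded vehicle libraries. Loaded vehicle libraries had 22.6, 4.40, 2.13, 58.7 and 12.6 CPM, so this group spread over more than an order of magnitude. The DEX libraries had 0.949 to 5.79 CPM without load and 0.472 to 2.15 CPM with load. The interaction of Col9a3 was -4.61 ± 0.97 (edgeR, adjusted p = 0.107, 0.00186 to 0.378 over the alternatives). The other collagen IX chains had a like pattern, with a difference of -4.20 ± 1.13 for Col9a1 and -2.90 ± 0.87 for Col9a2. In both, loaded vehicle replicate 4 lay near the unloaded level, at 2.13 CPM for Col9a1 and 2.75 CPM for Col9a2, and loaded vehicle replicate 5 was highest, at 79.2 and 46.6 CPM. Matn3, the matrix protein matrilin-3, had a difference of -3.11 ± 1.11 from levels of 0.876 to 18.1 CPM in loaded vehicle libraries and at most 2.52 CPM elsewhere.

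The summed cartilage level had group medians of 4272 CPM without and 5359 CPM with load in vehicle, and of 2259 and 1248 CPM in DEX. It ran from 2339 to 7300 CPM in unloaded and from 3728 to 5638 CPM in loaded vehicle libraries, and from 876 to 2490 and 617 to 2125 CPM in the DEX groups. The loaded and unloaded ranges overlapped in both treatments. Col11a1 and Col11a2 made up 28% and 26.2% of the sum, and bone-forming cells also use these fibrillar collagen genes. The median difference of the list was -1.56 without unloaded DEX replicate 4 and -1.41 without loaded DEX replicate 4, with 10 genes lower in each.

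**Figure D1:**
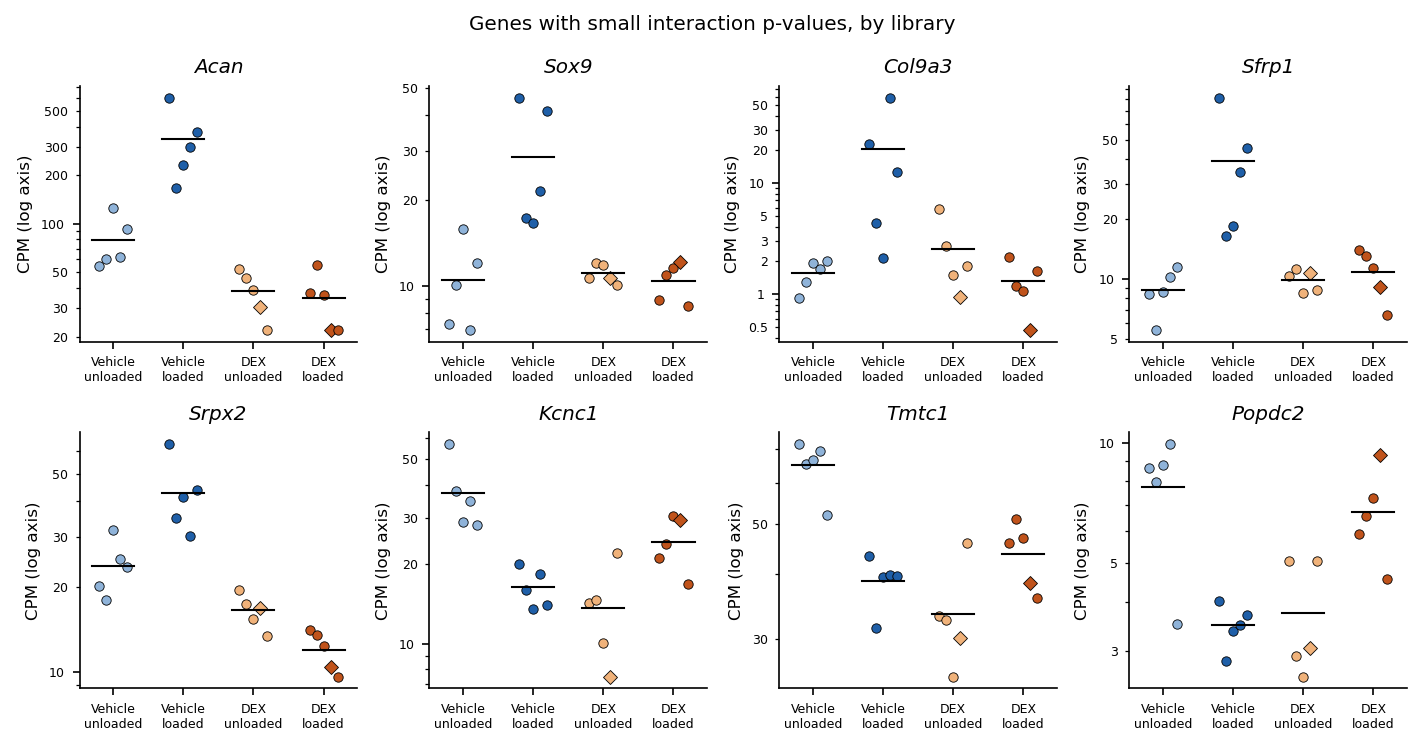
Level of 8 genes in each of the 20 libraries, in CPM on a log axis. Points are libraries, lines are group means and diamonds mark the DEX libraries with number 4. Loaded vehicle libraries all stand above the other groups for Acan, Sox9 and Sfrp1 and do so on average for Col9a3 and Srpx2, whereas Kcnc1, Tmtc1 and Popdc2 are lower with load in vehicle and higher with load in DEX on average.

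Beside Acan, Col9a3 and Sox9, the genes with the smallest interaction p-values and a lower response under DEX were Srpx2, Sfrp1, Ptx3, Ccn5, Mmp19, Lrrc25 and Srm. Srpx2, a secreted sushi-repeat protein, had the lowest p of all these. It was read at 17.9 to 31.7 CPM in unloaded and 30.3 to 63.5 CPM in loaded vehicle libraries. DEX libraries had 13.4 to 19.5 CPM without load and 9.64 to 14.1 CPM with load. Its loaded values were higher on average in vehicle and lower on average in DEX, with some overlap in both. The interaction was -1.31 ± 0.26 (edgeR, adjusted p = 0.0854, 0.00258 to 0.378 over the alternatives).

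Sfrp1, a secreted inhibitor of Wnt ligands, had 5.52 to 11.4 CPM in unloaded vehicle libraries and 81.3, 16.4, 18.4, 34.5 and 45.5 CPM in loaded ones. The 10 DEX libraries had 6.61 to 14.0 CPM. Only loaded vehicle libraries were above 14.0 CPM, and the interaction was -2.03 ± 0.47 (adjusted p = 0.142 in edgeR, 0.0134 to 0.423 over the alternatives). Sfrp2, a related Wnt inhibitor, did not share that flat DEX response. It had 16.8 to 31.3 CPM without and 27.7 to 192 CPM with load in vehicle, and 3.94 to 9.14 CPM without and 4.77 to 24.2 CPM with load in DEX. Its responses were 2.06 and 1.21, and the difference of -0.86 ± 0.57 had an unadjusted p of 0.146. Without loaded vehicle replicate 1, the difference of Sfrp2 was -0.44. Sfrp2 was thus higher with load on average in both treatments, at a lower level under DEX.

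The other genes were Ptx3, the pattern recognition protein pentraxin 3, with -1.47 ± 0.36, Ccn5, a matricellular protein, with -1.77 ± 0.45, and Mmp19, a matrix metalloproteinase, with -1.49 ± 0.38. Ccn5 had 3.29 to 9.28 CPM without and 10.6 to 30.8 CPM with load in vehicle, and 6.31 to 18.7 CPM over the 10 DEX libraries. Unloaded DEX libraries were thus mostly above unloaded vehicle libraries for Ccn5. Lrrc25, a leukocyte membrane protein, and Srm, the spermidine synthase, had smaller differences of -0.84 ± 0.21 and -0.83 ± 0.21.

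**Figure D2:**
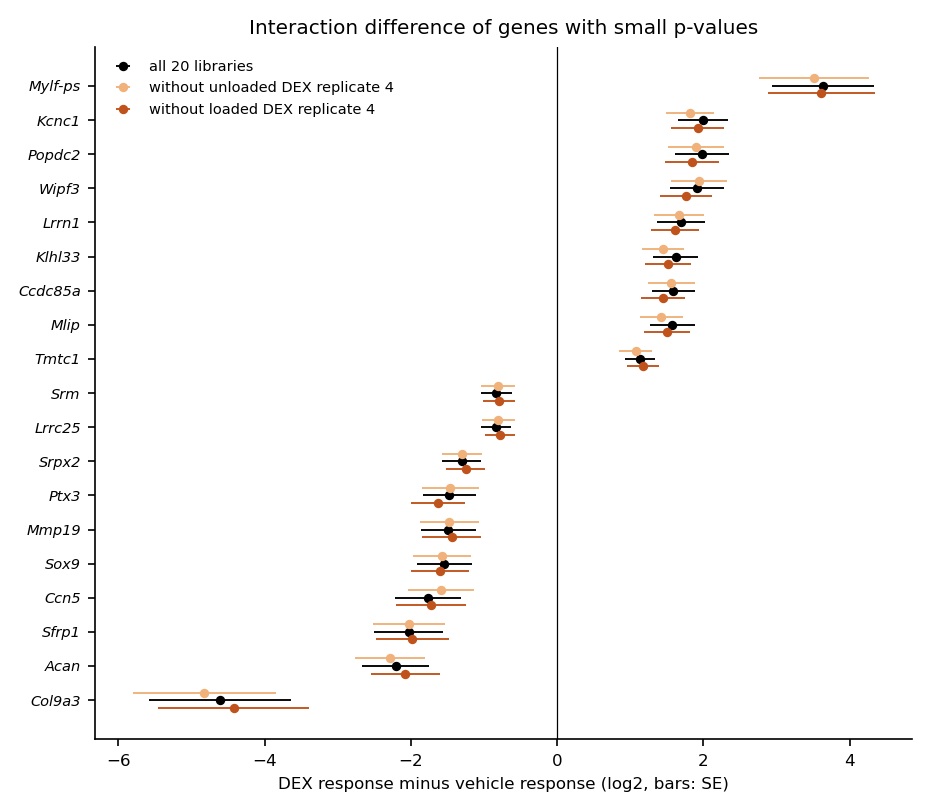
Difference between the DEX and vehicle loading responses (log2, bars are SE) for genes with a higher and genes with a lower response that had the smallest p-values. Values from all 20 libraries stand beside those without each DEX library with number 4, and every gene kept its sign, from -4.61 for Col9a3 to 3.64 for Mylf-ps.

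Skeletal muscle genes formed the opposite group. All 18 fast muscle sarcomere genes listed were tested, and 18 had a higher response under DEX at an unadjusted p under 0.05 (background 10.5%), with none past the adjusted threshold. Their median difference was 2.56, from a median response of -1.09 in vehicle and 1.46 in DEX. In vehicle, 6 of the 18 were lower with load at an unadjusted p under 0.05 (background 5.54%), and in DEX 15 were higher (background 6.06%). Of 10 slow muscle genes, 7 had a higher response, with a median difference of 2.66 from -1.61 in vehicle and 0.25 in DEX. That count was 6 without unloaded DEX replicate 4, 5 without loaded DEX replicate 4 and 4 with the level of background reads as a covariate.

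Myl1, a light chain of fast myosin, had 2198, 1168, 1559, 2094 and 313 CPM in unloaded vehicle libraries and 631, 137, 213, 1045 and 270 CPM in loaded ones. In unloaded DEX libraries it had 265, 98.5, 140, 62.8 and 576 CPM, and in loaded DEX libraries 339, 608, 619, 624 and 460 CPM. Most unloaded vehicle libraries were high and most unloaded DEX libraries were low, but the unnumbered unloaded vehicle library and unloaded DEX replicate 5 went against their groups, so loaded and unloaded values overlapped in both treatments. The interaction of Myl1 was 2.89 ± 0.81 (edgeR, adjusted p = 0.186, 0.00185 to 0.504 over the alternatives). Tnnc2, the fast troponin C, gave 3.09 ± 0.90. Actn2, an actinin of the muscle Z disc that was listed with the slow genes, gave 3.15 ± 0.80.

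The summed fast muscle level set the libraries apart in the same way. It was 120174, 44762, 82971, 90924 and 22825 CPM in unloaded vehicle libraries and 49230, 11159, 18213, 58379 and 29501 CPM in loaded ones. In DEX it was 15391, 9694, 8141, 4748 and 58110 CPM without load and 23543, 62146, 67750, 41341 and 52493 CPM with load. Unloaded DEX replicate 5, whose removal gave the 291 interaction calls, had the highest value of its group, and the next was 15391 CPM. The unnumbered unloaded vehicle library, whose removal gave 61, had the lowest value of its group. Of the 18 fast muscle genes, 17 were among the 291. The part of attached muscle in these differences was not tested. With the DESeq2 Wald test, none of the 18 fast muscle genes was called.

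The genes with the smallest p-values and a higher response were on none of the lists. Kcnc1, a voltage-gated potassium channel, was read at 57.0, 37.8, 28.8, 34.6 and 28.1 CPM in unloaded and 20.1, 16.0, 13.5, 18.4 and 14.1 CPM in loaded vehicle libraries. DEX libraries had 14.2, 14.6, 10.0, 7.49 and 22.1 CPM without load and 21.1, 23.8, 30.4, 29.4 and 16.8 CPM with load. The vehicle groups did not overlap, and in DEX unloaded replicate 5 alone reached into the range of the loaded group. The responses were -1.18 in vehicle and 0.82 in DEX, and the interaction of Kcnc1 was 2.00 ± 0.34 (edgeR, adjusted p = 0.0854, 0.000889 to 0.378 over the alternatives).

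Popdc2, a membrane protein of striated muscle, had 8.62, 7.95, 8.80, 9.91 and 3.52 CPM without and 4.01, 2.83, 3.38, 3.49 and 3.71 CPM with load in vehicle. DEX libraries had 5.07, 2.93, 2.59, 3.06 and 5.06 CPM without load and 5.90, 6.56, 7.27, 9.29 and 4.55 CPM with load. The unnumbered unloaded vehicle library lay within the loaded vehicle range, and loaded DEX replicate 5 lay within the unloaded DEX range. The interaction of Popdc2 was 1.98 ± 0.37 (edgeR, adjusted p = 0.0854, 0.00185 to 0.378 over the alternatives). Mlip, a lamin-interacting protein of muscle, gave 1.58 ± 0.31. Tmtc1, an enzyme of protein O-mannosylation, gave 1.13 ± 0.20 from 52.0 to 71.5 CPM without and 31.5 to 43.3 CPM with load in vehicle, groups that did not overlap. Mylf-ps gave 3.64 ± 0.70, but it is a pseudogene whose reads may belong to a near-identical muscle gene, so its value is uncertain. Lrrn1, Wipf3, Klhl33 and Ccdc85a gave 1.59 to 1.91.

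Promoter sequences are shown for the cartilage gene and the fast muscle gene with the smallest p-values in their lists for which RefSeq (GRCm38.p6) gave a promoter, since the 2 groups moved in opposite directions. Each runs 5′ to 3′ over 250 bases before the RefSeq start, with the E-box CAGCTG, a palindrome bound by myogenic and other basic helix-loop-helix factors, in capitals.
Acan, chr7:79052976-79053225, plus strand: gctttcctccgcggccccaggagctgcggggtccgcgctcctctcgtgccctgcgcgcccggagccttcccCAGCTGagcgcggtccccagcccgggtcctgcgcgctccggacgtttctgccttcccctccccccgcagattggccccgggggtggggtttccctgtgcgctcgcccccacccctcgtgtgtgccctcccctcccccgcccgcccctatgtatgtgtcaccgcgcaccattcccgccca
Myl1, chr1:66945057-66945306, minus strand: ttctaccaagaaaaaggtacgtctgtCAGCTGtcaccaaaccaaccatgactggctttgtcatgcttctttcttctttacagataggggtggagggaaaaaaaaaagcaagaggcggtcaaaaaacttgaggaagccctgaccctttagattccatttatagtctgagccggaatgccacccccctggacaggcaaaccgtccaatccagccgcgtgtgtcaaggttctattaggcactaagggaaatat
Among the 14023 tested genes with such a promoter, 12.3% held CAGCTG in these 250 bases. Of the 18 fast muscle, 18 cartilage and 10 slow muscle genes tested, 14, 13 and 10 had such a promoter. Of the fast muscle promoters, 8 of 14 (57.1%) held it, against 2 of 13 (15.4%) for cartilage and 2 of 10 for slow muscle. The letters AACAAT, read on both strands as a core of Sox binding sites, were in 6.42% of all promoters and in 0 of the 13 cartilage promoters. These matches describe letters in a short window and do not show binding.

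Nuclear genes of the respiratory chain also had differences mostly above 0 (89 of 97). Of 97 tested, 56 had a higher response under DEX at an unadjusted p under 0.05 (background 10.5%) and none a lower response. The median difference was 0.67, from -0.52 in vehicle and 0.16 in DEX. In vehicle 59 of them were lower with load at an unadjusted p under 0.05 (background 5.54%). In DEX 4 were higher (background 6.06%) and 1 was lower (background 2.15%). The count of 56 was 34 without unloaded DEX replicate 4, 44 without loaded DEX replicate 4 and 19 with the background covariate. Muscle is rich in mitochondria, and the part of muscle in these values was not tested. The summed respiratory chain level was 8676, 8289, 5140, 7620 and 3987 CPM in unloaded and 4472, 3859, 3875, 6659 and 4106 CPM in loaded vehicle libraries. It was 4229, 3616, 3343, 3410 and 4991 CPM in unloaded and 4250, 4306, 4542, 4752 and 4460 CPM in loaded DEX libraries. The unloaded vehicle group had the widest spread, and its lowest value lay within the loaded vehicle range. Of 10 muscle atrophy genes, 3 had a higher response (background 10.5%), namely Mstn, the growth inhibitor myostatin (1.74 ± 0.70), Klf15, a glucocorticoid-induced factor (0.81 ± 0.36), and Fbxo32, the ubiquitin ligase atrogin-1 (0.89 ± 0.40). That count was 2 without unloaded DEX replicate 4 and 5 with the background covariate, where the median went from 0.30 to 0.64. With each library left out, the median of the atrophy list ran from 0.19 to 0.46.

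**Figure D3:**
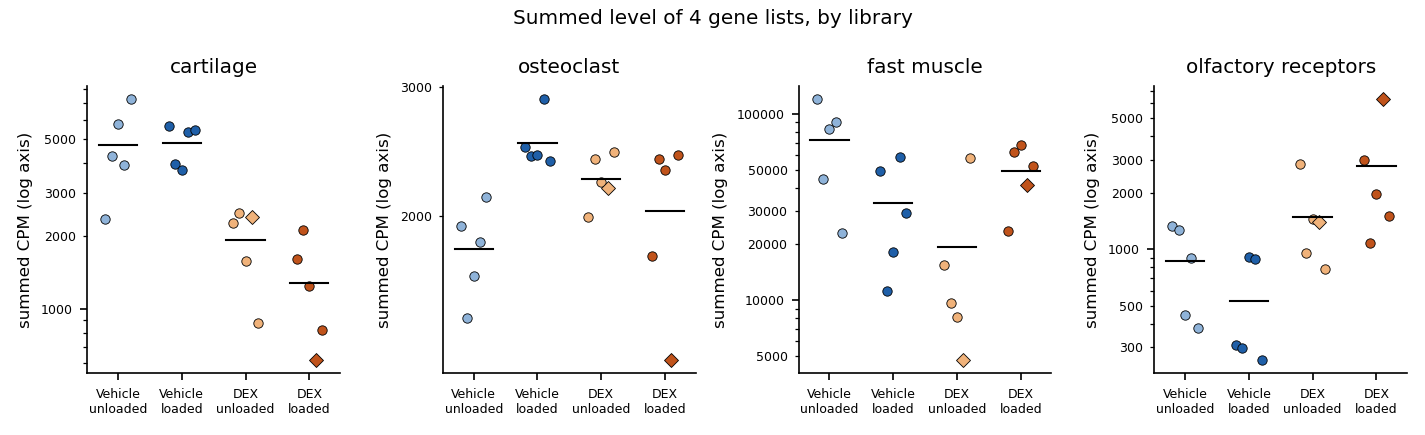
Summed level of 4 gene lists in each library, in CPM on a log axis, with group means as lines and the DEX libraries with number 4 as diamonds. The fast muscle panel shows 4 low unloaded DEX libraries (4748 to 15391 CPM) and 1 at 58110 CPM, and the olfactory receptor panel shows loaded DEX replicate 4 above the rest.

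Osteoclast genes had differences below 0. Of 14, 6 had a lower response under DEX at an unadjusted p under 0.05 (background 5.08%), and none passed the adjusted threshold. All 14 differences were below 0, whereas 53.9% of all genes were above 0. The median difference was -0.66, from 0.56 in vehicle and -0.16 in DEX. Among the third of all genes with the highest mean CPM, the median difference was -0.20 and 10.2% had a lower response. The summed osteoclast level was 1938, 1450, 1659, 1842 and 2123 CPM in unloaded and 2487, 2414, 2422, 2886 and 2380 CPM in loaded vehicle libraries, which did not overlap. It was 1992, 2388, 2226, 2187 and 2446 CPM in unloaded and 1764, 2390, 2312, 1272 and 2421 CPM in loaded DEX libraries. Unloaded DEX libraries thus lay mostly above unloaded vehicle libraries, and the lowest loaded DEX value was that of replicate 4.

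Ctsk, the collagen-degrading protease cathepsin K, had 232, 183, 182, 239 and 221 CPM without and 474, 334, 349, 558 and 379 CPM with load in vehicle. In DEX it had 196, 217, 161, 236 and 329 CPM without and 221, 347, 288, 192 and 285 CPM with load. The vehicle groups did not overlap and the DEX groups did, with a difference of -0.76 ± 0.27 for Ctsk (unadjusted p = 0.0110 and adjusted p = 0.255 in edgeR). Dcstamp, which mediates precursor fusion, had -1.16 ± 0.37, and Tcirg1, a subunit of the proton pump, had -0.72 ± 0.25. Acp5, the enzyme TRAP, had -0.78 ± 0.32, with 579 CPM in loaded vehicle replicate 5 and 153 to 297 CPM in the other 9 vehicle libraries.

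Of the 5 genes of the RANKL and CSF1 axis, 3 had a lower response at an unadjusted p under 0.05 (background 5.08%). They were the 2 receptors and Csf1, and the other 2 lay near 0. Tnfrsf11a, which encodes RANK, had 10.3 to 13.6 CPM without and 16.4 to 24.4 CPM with load in vehicle, with no overlap. In DEX it had 12.5 to 15.2 CPM without and 9.76 to 19.7 CPM with load. The difference was -0.73 ± 0.23. Csf1, the macrophage growth factor, had -0.71 ± 0.22 and its receptor Csf1r -0.67 ± 0.23, all 3 at an adjusted p of 0.208 to 0.227 in edgeR, and the lowest over their alternatives were 0.0373, 0.0238 and 0.0472. Tnfsf11, which encodes RANKL, had a difference of 0.29 and Tnfrsf11b, which encodes the decoy receptor osteoprotegerin, 0.26, both within 1 SE of 0. Among 12 macrophage genes, 3 had a lower response (background 5.08%), led by Cd68, a lysosomal membrane protein (-0.55 ± 0.19), and the median was -0.52. With the background covariate the count was 1 and the median -0.25.

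Matrix collagens outside cartilage had the same sign. Of 12 interstitial and basement membrane collagen genes, 3 had a lower response under DEX at an unadjusted p under 0.05 (background 5.08%) and 12 were below 0 (53.9% of all genes were above 0), with a median of -0.68 from 0.67 in vehicle and -0.11 in DEX. The 3 genes were the chains of collagen VI, with -1.18 ± 0.42 for Col6a1, -1.10 ± 0.42 for Col6a2 and -0.98 ± 0.46 for Col6a3. Col6a1 had 245, 272, 747, 283 and 320 CPM in unloaded vehicle libraries, so that replicate 4 of this group was at the level of the loaded group (490 to 1276 CPM). The 10 DEX libraries had 112 to 204 CPM for Col6a1. The count of 3 was 2 without either DEX library with number 4. With a covariate for background reads it was 1, and the median of the collagen list was -0.25. Among the third of all genes with the highest mean CPM, 10.2% had a lower response and the median was -0.20.

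Of 12 matrix protease and inhibitor genes, 4 had a lower (background 5.08%) and 1 a higher response (background 10.5%), with a median of -0.48. With the background covariate 3 were lower and the median was -0.19. Mmp3, the protease stromelysin-1, had 0.530 to 2.83 CPM without and 3.91 to 13.1 CPM with load in vehicle, which did not overlap, and 0.618 to 3.06 CPM in DEX. Its difference was -2.33 ± 0.66. The others were Mmp13, a collagenase (-0.62 ± 0.21), Mmp14, a membrane-bound protease (-1.01 ± 0.41), and Timp1, an inhibitor (-0.95 ± 0.39). Timp3, a tissue inhibitor of metalloproteinases, was the gene with a higher response (0.55 ± 0.22). Of 7 YAP and mechanical target genes, 2 had a lower response (background 5.08%), Ccn5 and Ccn3 (-1.17 ± 0.55), both matricellular proteins, and 1 did without either DEX library with number 4 or with the background covariate. Proliferation genes had a median difference of -0.42 with 5 of 14 lower (background 5.08%), Plk1, a mitotic kinase, having the smallest p (-0.59 ± 0.27). That count was 0 without unloaded DEX replicate 4, 1 without loaded DEX replicate 4 and 1 with the background covariate. Interferon-induced genes had a median of -0.47 with 2 of 11 lower (background 5.08%), Oasl2 (-0.63 ± 0.23) and Ifit1 (-0.81 ± 0.31), and with the background covariate a median of -0.26 with 1 lower. Of 65 replication-dependent histone genes 4 were lower (background 5.08%), 2 were without loaded DEX replicate 4 and 1 was with the background covariate. In the third of all genes with the highest mean CPM, the share with a lower response was 10.2%.

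**Figure D4:**
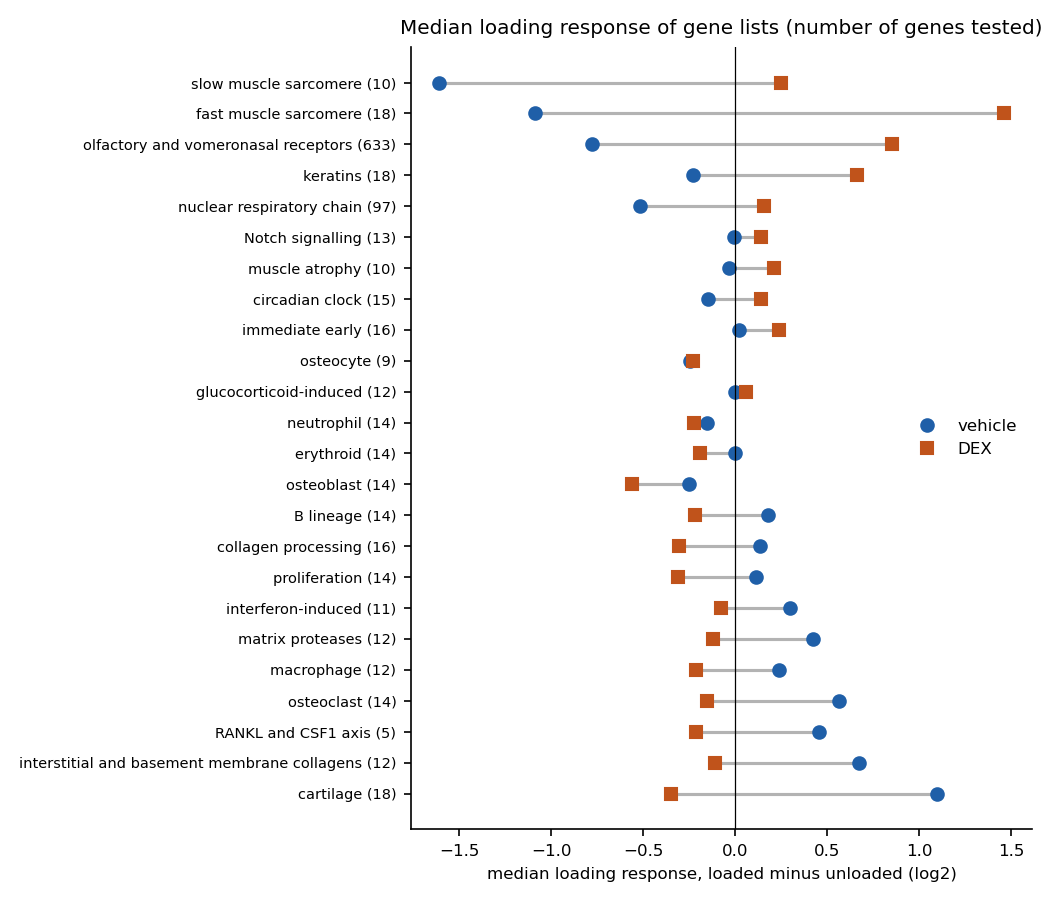
Median loading response of 24 gene lists in vehicle (circles) and in DEX (squares), as loaded minus unloaded on the log2 scale, with the number of genes tested in brackets. Among these lists, the median difference was highest for slow and fast muscle (2.66 and 2.56) and lowest for cartilage (-1.51). The vehicle and DEX medians of osteocyte genes were -0.25 and -0.23.

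None of 14 osteoblast genes and none of 9 osteocyte genes had an interaction at an unadjusted p under 0.05 (background 15.6%), with medians of -0.25 and -0.01. The osteoblast median ran from -0.45 to -0.08 with each library left out and the osteocyte median from -0.19 to 0.09, and 12 of the 14 differences were below 0. These values do not show that the responses were alike. Col1a1, the main collagen chain of bone, had a difference of -0.63 ± 0.72, and Sost, the osteocyte inhibitor of Wnt, -0.11 ± 0.30. Dmp1, a matrix protein of osteocytes, had -0.12 ± 0.33. Small leucine-rich proteoglycans had 0 of 9, collagen processing genes 0 of 16, and 1 of 16 periosteum and tendon genes was lower, namely Col14a1, a fibril-associated collagen, and 1 higher, namely Cilp2 (0.75 ± 0.33). For that list, 2 were lower and 0 higher without unloaded DEX replicate 4, 1 was lower and 3 higher without loaded DEX replicate 4, and none was lower with the background covariate.

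Col14a1 had 27.8, 22.1, 126, 37.2 and 28.9 CPM without and 316, 97.5, 82.2, 113 and 201 CPM with load in vehicle. In DEX it had 17.2 to 34.9 CPM without and 16.9 to 51.0 CPM with load. Unloaded vehicle replicate 4 alone overlapped the loaded vehicle group. The difference was -1.52 ± 0.61 for Col14a1 (unadjusted p = 0.0210 and adjusted p = 0.283 in edgeR, 0.0424 to 0.845 over the alternatives) and -2.28 without that library. The same library was highest of its group for Capn6, an atypical calpain, at 27.5 CPM against 4.73 to 8.11 CPM, where the difference was -1.53 ± 0.61. Smoc1, a calcium-binding matrix protein and modulator of BMP signals, had 5.09 to 11.1 CPM without and 12.9 to 61.6 CPM with load in vehicle and 7.84 to 15.5 CPM in DEX, with a difference of -1.58 ± 0.49.

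The mechanosensitive channel Piezo1 had 132, 127, 190, 129 and 188 CPM without and 221, 187, 167, 138 and 226 CPM with load in vehicle. DEX libraries had 139, 143, 132, 140 and 140 CPM without and 129, 155, 130, 72.8 and 133 CPM with load. The groups overlapped in both treatments. The difference of Piezo1 was -0.45 ± 0.25 (unadjusted p = 0.0823 and adjusted p = 0.348 in edgeR) and -0.30 without loaded DEX replicate 4, which had the lowest value of the 20. Its relative Piezo2 had a larger difference of -1.30 ± 0.56, from 11.7 to 36.3 CPM without and 25.0 to 118 CPM with load in vehicle and 6.83 to 14.4 CPM in DEX. Of 8 channel and related genes, Piezo2 was the 1 at an unadjusted p under 0.05 (background 15.6%). With the background covariate there was none and the list median went from -0.28 to 0.01. That median ran from -0.47 to -0.15 with each library left out.

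Hes1, a transcriptional repressor downstream of Notch receptors, had 13.0, 13.3, 9.22, 9.79 and 7.59 CPM without and 7.20, 6.54, 5.38, 10.1 and 6.81 CPM with load in vehicle. DEX libraries had 4.83, 8, 4.57, 4.74 and 5.71 CPM without and 5.50, 7.05, 6.84, 8.03 and 4.88 CPM with load. Loaded values were lower on average in vehicle and higher on average in DEX, with overlap in both. The difference of Hes1 was 0.76 ± 0.30 (edgeR, unadjusted p = 0.0173 and adjusted p = 0.270, 0.0432 to 0.796 over the alternatives), of the opposite sign to that of Piezo1. Of 13 Notch genes tested, 3 had a higher response (background 10.5%), namely Hes1, the ligand Dll1 (0.64 ± 0.26) and the effector Hey2 (0.85 ± 0.40). The median of the Notch list, 0.32, was 0.10 without loaded DEX replicate 4, and with the background covariate the count was 1.

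Among the remaining genes that the study named, 3 had no interaction at an unadjusted p under 0.05. Ostn, the muscle and bone peptide osteocrin, had 0.96 ± 0.50, Bhlhe41, a clock repressor, 0.40 ± 0.25, and Vdr, the vitamin D receptor, -0.06 ± 0.25, and the sign of Vdr turned in 5 of 29 alternatives. Without loaded DEX replicate 1 the difference of Ostn was 0.48, and without loaded DEX replicate 4 that of Bhlhe41 was 0.26. Kcnn2, a calcium-activated potassium channel, had 2.48 ± 0.78, with 13.1 CPM in loaded DEX replicate 4 and 1.63 to 3.62 CPM in the other 4 loaded DEX libraries. Without that library the difference of Kcnn2 was 1.63.

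Of 16 immediate early genes, 3 had a lower (background 5.08%) and 1 a higher response under DEX (background 10.5%). The lower were Ptgs2, the inducible prostaglandin synthase (-2.15 ± 0.61), Fosl2 (-0.80 ± 0.25) and Junb (-0.72 ± 0.27), and the higher was the nuclear receptor Nr4a1 (1.23 ± 0.33). Ptgs2 had 0.796, 1.06, 2.20, 0.644 and 1.10 CPM without and 9.12, 3.81, 2.38, 3.36 and 2.41 CPM with load in vehicle, and 0.741 to 2.25 CPM in DEX. The vehicle groups did not overlap, with the lowest loaded value of 2.38 CPM close to the highest unloaded value of 2.20 CPM. Nr4a1 had 11.3 to 23.1 CPM without and 5.56 to 13.9 CPM with load in vehicle, and 9.29 to 13.1 and 10.9 to 25.2 CPM in DEX. The list median of 0.21 was 0.47 without unloaded DEX replicate 4, -0.13 without loaded DEX replicate 4 0.18 without both and -0.11 with the background covariate, so its sign turned with a single library.

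Of 12 genes induced by glucocorticoids, 3 had a higher (background 10.5%) and 1 a lower response under DEX (background 5.08%). The higher were the transcription factor Zbtb16 (1.03 ± 0.29), Pdk4, a kinase that limits glucose oxidation (1.47 ± 0.49), and the kinase Sgk1 (0.52 ± 0.23), and the lower was Angptl4, a lipase inhibitor (-1.06 ± 0.39). Zbtb16 had 46.2 to 71.2 CPM without and 28.4 to 57.6 CPM with load in vehicle, and 45.0 to 76.6 and 54.3 to 103 CPM in DEX, with overlap in both. The median was -0.03, from -0.18 to 0.11 with each library left out and 0.31, with 4 higher, with the background covariate, so its sign was not stable. Of 15 clock genes, 3 had a higher response (background 10.5%), and 1 did without unloaded DEX replicate 4 and 5 with the background covariate. The 3 were Dbp (0.81 ± 0.30), Nr1d1 (0.79 ± 0.34) and Nr1d2 (0.70 ± 0.30), all output or repressor genes of the circadian clock.

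Of 16 genes of the BMP, TGF-beta and IGF pathways, 4 had a lower response under DEX (background 5.08%), Smoc1 among them. That count was 2 without either DEX library with number 4, 1 without both and 0 with the background covariate, where the median turned from -0.10 to 0.15. It was 0.03 without loaded DEX replicate 4. Igf1, a growth factor made by osteoblasts and muscle, had 70.1 to 134 CPM without and 114 to 350 CPM with load in vehicle and 34.1 to 68.0 CPM in DEX, with a difference of -0.90 ± 0.37. Inhba, a subunit of activin, had -0.82 ± 0.34. Of 19 Wnt genes, Sfrp1 had a lower response (background 5.08%), and the Wnt inhibitors Frzb (1.08 ± 0.44) and Sfrp5 (1.49 ± 0.65) had a higher response (background 10.5%).

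Lists of other marrow cells gave none at an unadjusted p under 0.05 (background 15.6%). These were neutrophil (14 genes), B lineage (14), T and NK lineage (10), erythroid (14), megakaryocyte (8), endothelial (12), marrow stroma (9) and adipocyte (10) genes, with medians from -0.28 for marrow stroma to -0.01 for T and NK lineage. With each library left out, these medians ran from -0.53 to -0.15 for marrow stroma, from -0.51 to 0.06 for B lineage and from -0.52 to 0.10 for adipocyte genes. Cytosolic ribosomal protein genes had 1 higher (background 10.5%) and 3 lower (background 5.08%) of 88, and 2 and 1 were lower without unloaded and without loaded DEX replicate 4. With the background covariate none was lower. Genes of the ATF4 pathway had 2 higher (background 10.5%) and 2 lower (background 5.08%) of 12, which was 0 higher and 1 lower without either DEX library with number 4.

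**Figure D5:**
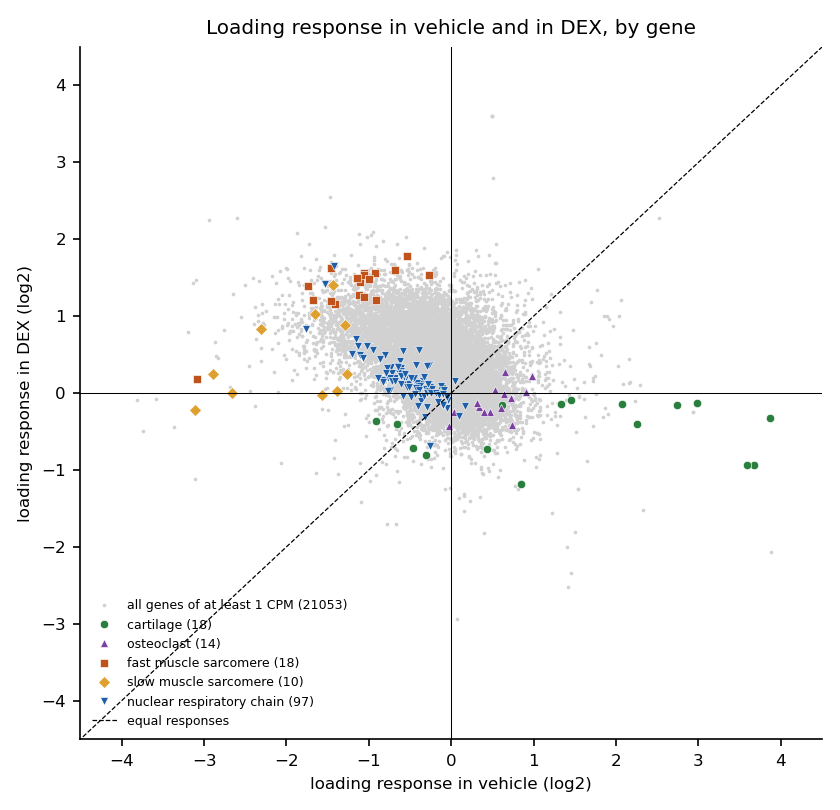
Loading response of each gene in vehicle (horizontal axis) and in DEX (vertical axis), as loaded minus unloaded on the log2 scale, with genes of at least 1 CPM in grey and 5 gene lists in colour. The dashed line marks equal responses. Of the 18 cartilage genes, 12 lie above 0 in vehicle and 2 above 0 in DEX, and fast muscle genes lie above 0 in DEX and below 0 in vehicle.

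The differences above 0 were more frequent among genes of low level. In the lowest tercile of genes by mean CPM, 16.4% had a higher and 0.583% a lower response at an unadjusted p under 0.05, with a median difference of 0.92. In the highest tercile, 5.77% had a higher and 10.2% a lower response, with a median of -0.20. The background shares printed with the lists are over all genes tested, not over genes of a like level. The median was 0.60 for long noncoding genes, 0.58 for pseudogenes and -0.03 for protein-coding genes. Of 633 olfactory and vomeronasal receptor genes tested, 190 had a higher response (background 10.5%) and none a lower response, with a median of 1.65. The count of 190 was 87 without loaded DEX replicate 4 and 21, with a median of 0.21, when their own summed level was the covariate. Of 18 keratin genes 2 had a higher response (background 10.5%), with a median of 1.07, and none did without loaded DEX replicate 4. The olfactory receptor level was 338 to 1243 CPM in unloaded and 228 to 889 CPM in loaded vehicle libraries, and 792 to 3177 and 1070 to 8650 CPM in the DEX groups. With that level as a covariate, the median of keratins was 0.12, that of cartilage -1.50 and that of fast muscle 2.76, whereas the medians of macrophage, collagen, protease, interferon-induced, channel and growth factor genes moved toward or past 0, as given with each. No gene passed the adjusted threshold.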

How the data were processed

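RNA-seq was measured in 20 mouse tibia libraries made with a stranded total RNA kit. The deposited table of the authors holds expected counts, unscaled, for 54446 genes. The submitters' processing notes name STAR 2.7.10a, RSEM 1.2.28 and GRCm38 without their settings. All values were rounded to whole counts, since 10.6% to 14.0% per library had a fraction. Totals of 4641437 to 13032018 counts limit precision through counting error only.

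The interaction was fitted over 4 groups in R 4.3.3 with edgeR 4.0.16 (filterByExpr, TMM, quasi-likelihood F test, Benjamini-Hochberg adjustment, threshold 0.05). SE is the absolute log2 difference divided by the square root of F. CPM use TMM-scaled library sizes, except the olfactory receptor level of a library, which uses its unscaled total. Gene names and positions come from GENCODE M21; 54409 identifiers matched without their version. Alternatives were DESeq2 1.42.0 (the study's test), limma 3.58.1 (voom with sample weights), other filters and size factors, a replicate block, a background covariate and each library left out. The test was tested on simulated data. No libraries of a group were alike within counting error (squared differences 8.82 to 113 times it).

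Members and gene lists were chosen with earlier results of these data known. Named genes are those the study names for the tibia, the 10 higher and 10 lower with the smallest p at a mean of at least 1 CPM, and up to 4 genes with the smallest p and the first 2 of each list, except 1 that is not reported here. Genes beyond these (Junb, Angptl4, Col6a3, Nr1d2, Timp3 and others in the same sentences) were added with their values known, since they are few. The CCN genes were listed by the symbols that the annotation uses.

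The study removed a DEX-4 data set without saying which tibia is meant, so each was left out in turn. In each vehicle group, 1 column carries a number that no label has and was matched to its group only. Replicate numbers were not used as pairs, because neither the labels nor the methods tie them to a mouse. The deviations of same-numbered libraries correlated above 0.1 in 4 of 9 pairs, against 10 of 32 pairs with different numbers. Same-numbered correlations were -0.18, -0.18, -0.30 and 0.25 in vehicle, and 0.35, 0.36, 0.04, 0.03 and 0.33 in DEX. These values do not settle whether the numbers mark the same mouse.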

Additional observations from a re-analysis of the deposited data

Results flagged for a closer look

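Libraries were compared with the others of their group in 200 checks of gene levels, list levels and library measures. A library was listed where its gap to the nearest of the other 4 was above 0.71 of the range of the group. Chance alone lists about 1 in 20 groups, and 12 were listed here.

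Both DEX libraries with number 4 stood above their groups for immediate early genes. Their mean log2 CPM was 4.02 in the unloaded library, against 3.33 to 3.5 in the other 4, and 4.35 in the loaded library, against 3.40 to 3.64. Fos, the first gene of that list, was at 43.3 CPM in the unloaded and 67.7 CPM in the loaded library of that number, and at 9.17 to 22.6 CPM in the other 8 DEX libraries. Loaded DEX replicate 4 was also highest of its group for Matn3 (2.52 CPM against 0.134 to 0.490) and Kcnn2 (13.1 CPM against 1.63 to 3.62).

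Unloaded vehicle replicate 4 was highest of its group for Col14a1 (126 CPM against 22.1 to 37.2) and Capn6 (27.5 CPM against 4.73 to 8.11). Unloaded vehicle replicate 2 was lowest for Smoc1 (5.09 CPM against 9.91 to 11.1) and highest for Ostn (34.8 CPM against 19.5 to 22.1). The unnumbered unloaded vehicle library was highest for Vdr (122 CPM against 64.2 to 77.5). Loaded vehicle replicate 5 was highest for Mlip (27.7 CPM against 16.2 to 18.3), and loaded vehicle replicate 1 was highest for Ptx3 (23.2 CPM against 8.38 to 12.0). Unloaded DEX replicate 1 was lowest for the proliferation genes (mean log2 CPM of 6.52 against 6.66 to 6.70).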

How the results depend on the processing

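The count of interaction genes, 0 in edgeR, was 158 with DESeq2, 1175 with limma-voom and sample weights, 20 without the filter except 1 count in total, 2 with at least 10 counts in every library, and 0 to 291 with each library left out. With the replicate number as a block over 18 libraries it was 232 (223 higher, 9 lower), and 8 for the same libraries without the block. On these 18 libraries, 29 histone genes were lower at an unadjusted p under 0.05 with the block and 12 without it, against 4 on all 20. The numbers were not taken as pairs, since nothing ties them to a mouse. Same-numbered deviations correlated at -0.30 to 0.36, and 4 of 18 libraries correlated best with their own number. Of the 158 DESeq2 calls, 92 were among the 232. The count of vehicle loading genes, 8 higher and 0 lower, was 114 with DESeq2 (57 higher, 57 lower), 551 with limma-voom (219 higher, 332 lower), 5 with DESeq2's size factors, 36 without the filter, 0 with and 0 without the block on the 18 libraries, and 0 to 39 with each library left out (39 without unloaded vehicle replicate 4, 0 without unloaded vehicle replicate 2 or 5, 14 without loaded vehicle replicate 2, 2 without loaded and 3 without unloaded vehicle replicate 1, and 4 or 5 without each DEX library except loaded DEX replicate 4). The count of DEX loading genes, 0, was 227 with limma-voom. Causes were not tested. Of the genes examined, 117 in all, Vdr alone changed sign, from -0.06 to 0.050 with at least 10 counts, 0.070 with the background covariate, and -0.29 to 0.036 with each library left out. Of 3375 gene values under the alternatives, 171 newly passed the threshold. Of 1102 list medians, 24 moved by more than the spread between replicates. The cartilage median was -1.69 to -0.69 and the fast muscle median 2.26 to 4.27. Depth limits genes near 1 CPM.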
